A study of Mus musculus with 7 samples.

Results

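The 10 genes described here encode the subunits of the transcription factor NF-kB and proteins grouped as its feedback inhibitors. They were chosen by name out of 53379 gene IDs counted: the subunit genes Rela, Relb, Rel, Nfkb1 and Nfkb2, and, grouped as inhibitor genes, Nfkbia, Nfkbie, Nfkbiz, Tnfaip3 and Bcl3. The group name does not cover every role of the Nfkbiz and Bcl3 products, which are described below. The material was EPCAM+ epithelium of the mouse endometrium, the cell layer facing the uterine cavity and its glands, separated with magnetic beads after tissue digestion and measured by mRNA sequencing. The 4 mutant libraries (LtfCre 0/+; Brg1 fl/fl) each came from a separate CD-1 mouse aged 120 days, in which Cre recombinase under Ltf (lactoferrin) control deletes floxed Brg1, also called Smarca4, whose product drives the SWI/SNF chromatin remodeller with energy from ATP. The 3 control libraries came from cells of pooled wild-type CD-1 mice, were taken over from an earlier series (labelled as its first flow cell), and no age is stated for them in the sources used here. Genotype, library set and pooling coincide and cannot be told apart in any difference below, and no sample carried Cre without the floxed gene or the floxed gene without Cre.

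NF-kB proteins act as pairs of subunits that share a Rel homology domain. In resting cells IkB proteins hold them in the cytoplasm. Signals from TNF, interleukin-1 or microbial products activate the IKK kinases, which mark IkB for destruction, and the freed subunits, mostly RelA with p50 (from Nfkb1), enter the nucleus. A slower, non-canonical branch runs through the kinase NIK and processing of the Nfkb2 product, and RelB is its usual partner. Several inhibitors are themselves NF-kB targets, which closes a feedback loop. In the lining of the uterus the pathway is known for the response to microbes and for chemokine output.

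Reads counted in genes ranged from 12436971 to 13364080 in mutants and from 21372036 to 25862245 in controls. Levels are reads per 1000000 gene reads after TMM scaling (CPM), a scaling that removes shifts shared by most genes. Smarca4, the targeted gene, had 87.6, 56.7, 86.9 and 105.4 CPM in the mutants, in replicate order as throughout, and 263, 245 and 279 CPM in the controls. It fell by 1.64 ± 0.23 (SE) on the log2 scale (edgeR adjusted p = 0.00967). The 7 epithelial marker genes summed to 7100 to 10649 CPM in the mutant libraries, against 14863 to 17854 CPM among controls. Marker sums of other cells were 374 to 598 against 485 to 644 CPM for 17 immune genes, 165 to 475 against 547 to 696 CPM for 8 fibroblast genes, 4.68 to 17.9 against 16.6 to 20.3 CPM for 6 endothelial genes, and 7.52 to 82.0 against 67.1 to 106.6 CPM for 6 smooth muscle and pericyte genes (mutants against controls). No gene of these marker lists was at 0 in all libraries, and the part of such cells in the results was not tested. In bulk RNA, fewer cells of a type and less RNA per cell cannot be told apart.

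Several NF-kB subunit and inhibitor transcripts fell in mutant epithelium, and Nfkbie rose. All 10 genes passed the filter on low counts, and 9 of them had a negative log2 fold change. Of the 10, 4 fell (Rela, Relb, Nfkb1 and Nfkbia), 1 rose (Nfkbie) and 5 did not pass (quasi-likelihood test in edgeR, with p adjusted over all 14610 genes tested by the Benjamini-Hochberg method and a threshold of 0.05). Over all genes tested, 11.5% passed, 6.18% as lower and 5.37% as higher. The mutant and control ranges were separate for 6 of the 10 genes, 5 lower and 1 higher, against 16.1% of all genes lower and 15.4% higher. The median log2 fold change was −0.85 over the 10 genes and 0.06 over all genes tested. A shift of this size was not particular to the 10 genes. The epithelial markers had a median of −0.81, the fibroblast markers −1.29 and the endothelial markers −0.66. It was −0.99 for smooth muscle and pericyte markers and 0.05 for the immune genes tested. In the authors' deposited table the same counts were 4 lower and 1 higher, where 8.34% of all genes with an adjusted p were lower and 8.85% higher.

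**Figure D1:**
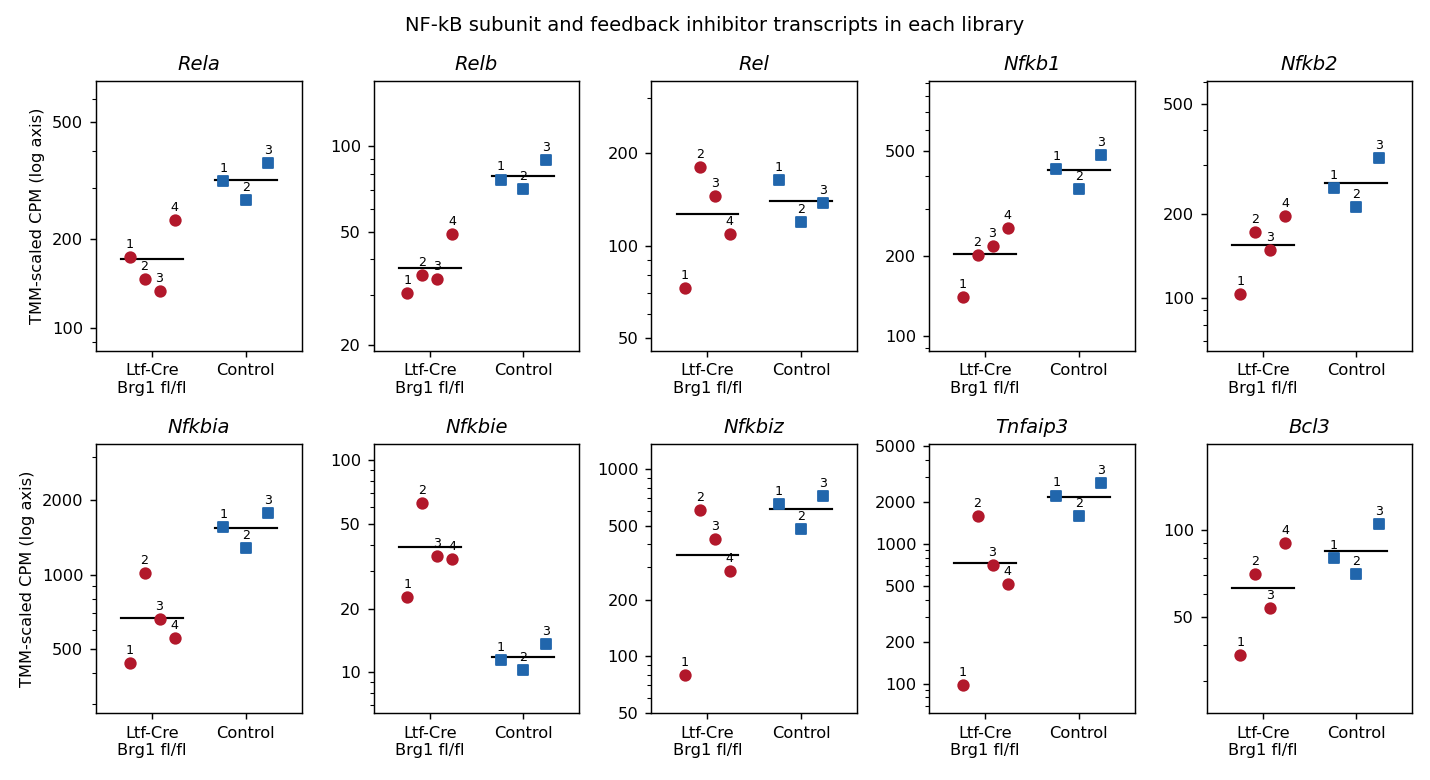
TMM-scaled CPM (log axis) of each gene in the 4 mutant libraries (circles, left) and the 3 control libraries (squares, right), numbered by replicate, with the group mean as a line. Rela, Relb, Nfkb1, Nfkb2 and Nfkbia lie lower in mutants without overlap, Nfkbie lies higher without overlap, and Rel, Nfkbiz, Tnfaip3 and Bcl3 overlap.

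Among the subunits that carry a transactivation domain, Rela and Relb fell and Rel did not pass. Rela, whose product is the main activating subunit of the canonical branch, stood at 174, 147, 134 and 233 CPM in mutants, against 316, 273 and 364 CPM in controls. Every mutant lay below every control, and the log2 difference was −0.88 ± 0.23 (SE; edgeR adjusted p = 0.0499). That adjusted p is next to the threshold.

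Relb, the non-canonical partner, stood at 30.4, 35.1, 34.2 and 49.0 CPM in mutants, against 76.4, 70.6 and 89.5 CPM in controls. The groups were separate, and the level was 2.12-fold lower in mutants (log2 fold change −1.08 ± 0.21 SE, edgeR adjusted p = 0.0230). Rel, which encodes c-Rel and is best known from lymphocytes, stood at 73.0, 180, 144 and 109 CPM in mutants, against 163, 119 and 137 CPM in controls. The mutants spanned the whole control range. Its log2 fold change was −0.14, with a 95% interval from −0.86 to 0.57 (edgeR adjusted p = 0.786), and it turned positive, at 0.21 with total count scaling, at 0.09 without mutant replicate 1 and at 0.0024 without control replicate 1.

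Nfkb1 and Nfkb2 encode precursors that are cut to the DNA-binding subunits p50 and p52. Nfkb1 stood at 140, 201, 218 and 256 CPM in mutants, against 424, 359 and 481 CPM in controls. It fell 2.07-fold without overlap (log2 fold change −1.05 ± 0.24 SE, edgeR adjusted p = 0.0331). Nfkb2 stood at 103, 173, 148 and 197 CPM in mutants, against 249, 213 and 317 CPM in controls. The groups were separate here too, but the test was not passed (log2 fold change −0.74, 95% interval −1.34 to −0.14, edgeR adjusted p = 0.103).

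**Figure D2:**
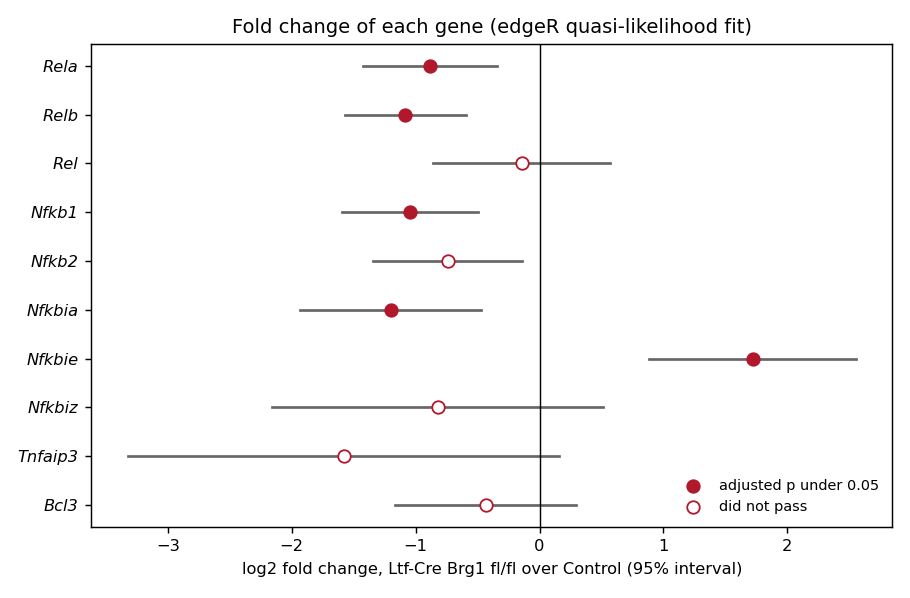
Log2 fold change of each gene, mutant over control (horizontal axis), with its 95% interval from the edgeR fit. Filled points passed the adjusted p threshold, open points did not. Nfkbie at 1.72 stands alone on the right of 0, and Tnfaip3 has the widest interval, from −3.32 to 0.16.

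The inhibitors split in direction. Nfkbia encodes IkB alpha, the best-known IkB and a rapid feedback target. It stood at 440, 1020, 664 and 553 CPM in mutants, against 1555, 1277 and 1784 CPM in controls. The highest mutant lay below the lowest control, and the level was 2.30-fold lower (log2 fold change −1.20 ± 0.31 SE, edgeR adjusted p = 0.0491).

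Nfkbie encodes IkB epsilon, a further cytoplasmic inhibitor of the same ankyrin repeat family. It had 22.7, 62.9, 35.4 and 34.1 CPM in mutants, against 11.5, 10.3 and 13.5 CPM in controls. These levels rest on 290, 820, 506 and 560 reads in mutants and 218, 194 and 298 reads in controls, and the control libraries held more reads in all. Each mutant exceeded each control, and the level was 3.29-fold higher (log2 fold change 1.72 ± 0.36 SE, edgeR adjusted p = 0.0277). The authors' deposited table gives 1.74 ± 0.45 (SE, adjusted p = 0.00209) for Nfkbie and −1.19 ± 0.32 (SE, adjusted p = 0.00376) for Nfkbia. No 50-base word of Nfkbie or Nfkbia transcripts is shared with another annotated gene.

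Within each group the pair kept a nearly fixed proportion. A read of Nfkbie stood beside 19.4, 16.2, 18.7 and 16.2 reads of Nfkbia in mutant replicates 1 to 4, against 135, 124 and 132 reads in the controls. The log2 ratio of Nfkbie to Nfkbia was −4.13 ± 0.14 in mutants and −7.02 ± 0.06 in controls (SD, n = 4 and 3), a difference of 2.89. This proportion does not depend on scaling between libraries. It was chosen after the values were seen and was not tested. Both genes were highest in mutant replicate 2 and lowest in mutant replicate 1, as were Rel, Nfkbiz and Tnfaip3. A narrow spread of a ratio was not particular to this pair. The SD of the log2 ratio of Nfkb2 to Nfkb1 was 0.14 in mutants and 0.09 in controls. It was 0.75 in mutants and 0.04 in controls for Nfkbia to Rela, and 0.24 in mutants and 0.05 in controls for Relb to Rela.

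**Figure D3:**
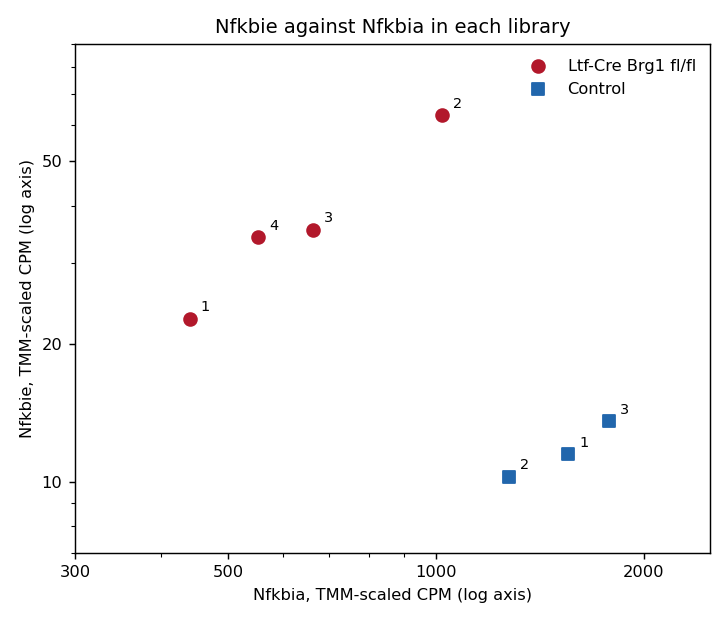
TMM-scaled CPM of Nfkbie (vertical, log axis) against Nfkbia (horizontal, log axis) in each library, mutants as circles and controls as squares, numbered by replicate. The mutants run along a line at 16.2 to 19.4 reads of Nfkbia per read of Nfkbie, and the controls along one at 124 to 135.

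Nfkbie lies on chromosome 17 of GRCm38 from 45555703 to 45563169 on the plus strand, and Nfkbia on chromosome 12 from 55489410 to 55492647 on the minus strand. No other annotated gene overlaps either. The next gene downstream of Nfkbie, Slc35b2, looked at after the values of Nfkbie were seen, starts at 45563874 on the same strand. Slc35b2 stood at 40.2, 67.5, 49.7 and 42.7 CPM in mutants, against 33.8, 30.2 and 33.7 CPM in controls. Every mutant lay above every control, as for Nfkbie, but Slc35b2 did not pass (log2 fold change 0.62, edgeR adjusted p = 0.110). The nearest upstream gene, Tmem151b, had at most 0.12 CPM in mutants and 0.23 CPM in controls.

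The promoters of Nfkbie, Nfkbia and Rela are shown because these genes changed and have an entry in the RefSeq promoter table, as 7 of the 10 genes do. Relb and Nfkb1, which also changed, and Nfkbiz have none there. Each sequence holds the 250 bases before the RefSeq start in GRCm38.p6, read along the gene from 5′ to 3′. Capitals mark matches of the kappa B consensus, the motif that NF-kB binds.
Nfkbie, chr17:45555450-45555699, plus strand: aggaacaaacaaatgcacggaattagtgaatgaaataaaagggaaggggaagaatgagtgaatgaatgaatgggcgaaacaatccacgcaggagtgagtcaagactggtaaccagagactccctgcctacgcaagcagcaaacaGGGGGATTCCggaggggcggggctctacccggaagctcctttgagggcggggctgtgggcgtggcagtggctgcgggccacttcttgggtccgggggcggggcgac
Nfkbia, chr12:55492648-55492897, minus strand: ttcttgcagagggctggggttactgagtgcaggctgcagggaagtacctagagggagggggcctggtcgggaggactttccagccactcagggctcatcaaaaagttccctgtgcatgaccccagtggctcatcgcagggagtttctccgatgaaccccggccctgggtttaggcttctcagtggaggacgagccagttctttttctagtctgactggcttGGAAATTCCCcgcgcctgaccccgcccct
Rela, chr19:5637291-5637540, plus strand: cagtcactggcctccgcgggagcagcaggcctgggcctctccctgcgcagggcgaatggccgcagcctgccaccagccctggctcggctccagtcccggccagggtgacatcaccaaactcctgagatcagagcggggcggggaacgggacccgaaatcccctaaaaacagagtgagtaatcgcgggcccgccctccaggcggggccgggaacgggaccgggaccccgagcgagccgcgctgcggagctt
The Nfkbie promoter matched at positions −106 to −97 from the start on the coding strand, and the Nfkbia promoter at −29 to −20 on the other strand. The Rela promoter held no match, which says only that these letters are not in this window.

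Motifs were searched on both strands in windows that run to 50 bases after the start. A kappa B match was found in 6 of the 7 genes with a window (Nfkb2, Rel, Nfkbia, Nfkbie, Tnfaip3 and Bcl3). Some genes have several windows, and 8 of their 10 windows held a match, against 4.51% of all 32851 promoter windows. Nfkb2 has 3 of these windows, and a match with the same letters lay in its windows 2 and 3. Windows of a gene may overlap and are not taken as independent. The AP-1 motif TGANTCA was found in 3 of the 10 windows (of Nfkb2, Nfkbie and Tnfaip3), against 7.81% of all windows. The GC box GGGCGG was found in 8 of the 10 windows and in all 7 genes, against 35.7% of all windows. In Nfkbie it occurred 3 times on the coding strand, and it overlapped no kappa B match there. Genes that rose, fell and did not pass all occur among those with a kappa B match. A match is a description of sequence, not a site shown to be bound.

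Tnfaip3 and Nfkbiz had the widest spread among mutants of the 10 genes. Tnfaip3 encodes A20, a ubiquitin-editing enzyme that shuts off signalling upstream of IKK. It stood at 98.4, 1589, 710 and 521 CPM in mutants, against 2222, 1587 and 2743 CPM in controls. Mutant replicate 2 was level with the lowest control, and mutant replicate 1 lay at 4.51% of the control mean. The highest mutant was 16.1-fold above the lowest, against 1.73-fold among controls. Mutant libraries are single mice and control libraries are pools of mice, so these spreads are not of the same kind. The log2 fold change was −1.58, the lowest of the 10 genes, but its 95% interval ran from −3.32 to 0.16 (edgeR adjusted p = 0.197).

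Nfkbiz encodes IkB zeta, a nuclear cofactor that switches on secondary response genes. It stood at 79.3, 604, 426 and 288 CPM in mutants, against 652, 479 and 723 CPM in controls. The groups overlapped, since mutant replicate 2 exceeded control replicate 2. The gene did not pass (log2 fold change −0.82, 95% interval −2.16 to 0.51, edgeR adjusted p = 0.370). Bcl3 encodes a nuclear IkB protein that partners p50 and p52. It stood at 37.1, 70.3, 53.6 and 90.6 CPM in mutants, against 79.9, 70.3 and 105.0 CPM in controls. Its groups overlapped too, and it did not pass (log2 fold change −0.44, 95% interval −1.17 to 0.30, edgeR adjusted p = 0.386).

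The 5 calls were sensitive to which libraries entered. All 5 held without mutant replicate 1, the library that was lowest of the mutants for 9 of the 10 genes (edgeR adjusted p from 0.00620 to 0.0463). Without mutant replicate 2, Nfkb1, Rela and Relb were lost (edgeR adjusted p up to 0.1003), and without mutant replicate 4, Nfkbia and Nfkbie (edgeR adjusted p up to 0.107). None of the 5 passed without mutant replicate 3 (edgeR adjusted p from 0.0588 to 0.112) or without control replicate 1, 2 or 3 (edgeR adjusted p from 0.0914 to 0.202). Smarca4, the targeted gene, did not pass without control replicate 1, 2 or 3 either (edgeR adjusted p = 0.0612, 0.0532 and 0.0575). It passed without each mutant replicate (edgeR adjusted p from 0.00679 to 0.0310). Among all genes tested, 29.5%, 6.75%, 4.21% and 6.34% passed when mutant replicate 1, 2, 3 or 4 was left out, and 0.878%, 1.11% and 0.902% when control replicate 1, 2 or 3 was. Across these removals the log2 fold change of Nfkbie stayed between 1.39 and 1.95, and that of Nfkbia was negative each time.

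Scaling matters for the genes that fell. Over all genes the median log2 fold change was 0.06 under TMM, 0.20 under upper-quartile scaling and 0.41 under scaling by total counts, and 46.5%, 62.6% and 80.5% of the changed genes were higher. Under scaling by total counts the values of Nfkbia, Relb, Nfkb1 and Rela were −0.86, −0.71, −0.68 and −0.52, and none of the 4 passed (3.64% of all genes passed as lower and 15.1% as higher). Upper-quartile scaling kept 2 of the 4, Relb and Nfkb1, with 4.82% of all genes lower and 8.06% higher, as did no filter (2.42% and 1.22%) and unstranded counts (5.89% and 5.12%). With limma-voom 6 of the 10 genes were lower, where 18.9% of all genes were lower and 16.8% higher. A replicate term left 0 of the 10 and, over all genes, 0.00% lower and 0.0137% higher. Nfkbie passed under every scaling tried, with values from 1.72 to 2.07. Apart from Rel, the 10 genes kept their direction in all 15 alternatives.

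Levels of different genes are comparable only per length, here as CPM per kilobase of annotated exon sequence. That length includes exons of rare transcripts, so that values of genes with many transcripts are understated. In mutants the order of the group means was Nfkbia (416), Tnfaip3 (101), Nfkbiz (69.6), Rela (56.0), Nfkb2 (33.9), Bcl3 (25.4), Rel (16.9), Nfkb1 (16.9), Nfkbie (12.7) and Relb (9.57 CPM per kilobase). In controls it was Nfkbia (956), Tnfaip3 (302), Nfkbiz (123), Rela (103), Nfkb2 (56.7), Nfkb1 (34.9), Bcl3 (34.4), Relb (20.3), Rel (18.7) and Nfkbie (3.87 CPM per kilobase). Among controls the ranges of neighbours overlapped for Nfkbiz with Rela, Nfkb1 with Bcl3, and Relb with Rel, and were separate for the other neighbours. Among mutants the ranges were separate for Nfkbia with Tnfaip3 and for Rela with Nfkb2, and overlapped for the other neighbours. Nfkbie was the least abundant of the 10 in controls at 3.37 to 4.45 CPM per kilobase, and its mutant range of 7.45 to 20.7 overlapped those of Relb, Nfkb1, Rel, Bcl3, Nfkbiz and Tnfaip3.

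As shares of the summed per-length level of the 5 subunits, Rela made up 35.4% to 52.3% in mutants and 44.0% to 44.6% in controls, and Nfkb2 20.7% to 27.9% against 23.2% to 25.7%. Relb made up 6.68% to 7.54% in mutants and 8.41% to 9.12% in controls, and Nfkb1 10.7% to 14.78% in mutants and 14.84% to 15.0% in controls, both without overlap. Rel made up 8.74% to 17.8% in mutants and 6.84% to 9.34% in controls, with overlap. The summed level was 108 to 167 CPM per kilobase in mutants and 199 to 269 in controls. Of the summed level of the cytoplasmic IkB genes Nfkbia, Nfkbib and Nfkbie, Nfkbie made up 2.46% to 3.05% in mutants and 0.371% to 0.400% in controls. Nfkbia remained the bulk, at 90.2% to 93.5% in mutants and 94.1% to 95.1% in controls. These shares are descriptions, and no test was made of them.

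The 3 ratios of reads within a library that were tested do not depend on scaling between libraries. The log2 ratio of Nfkb2 to Nfkb1 reads was −0.40 ± 0.14 in mutants and −0.71 ± 0.09 in controls (SD, n = 4 and 3). Every mutant lay above every control, at −0.56 to −0.21 against −0.77 to −0.60, and the difference of 0.31 gave p = 0.0571 in a two-sided exact permutation test, the smallest p that 4 against 3 libraries allow (0.171 adjusted over the 3 ratios). With unstranded counts the difference was 0.27 (exact permutation p = 0.114). The log2 ratio of Nfkbia to Rela was 1.92 ± 0.75 in mutants and 2.27 ± 0.04 in controls (SD, n = 4 and 3; exact permutation p = 0.571, adjusted 0.571). Mutant replicates 2 and 3, at 2.79 and 2.31, lay above all controls, and mutant replicates 1 and 4, at 1.34 and 1.25, below them. The log2 ratio of Relb to Rela was −2.20 ± 0.24 in mutants and −2.01 ± 0.05 in controls, with overlap (SD, n = 4 and 3; exact permutation p = 0.229, adjusted 0.343).

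The rest of the pathway was counted in 4 lists by role. Of 29 ligand and receptor genes 24 were tested, and 4 fell and 2 rose, where 6.18% of all genes tested fell and 5.37% rose (median log2 fold change −0.47, against 0.06 over all genes). The cytokine Tnf stood at 2.66, 5.75, 6.58 and 13.0 CPM in mutants, against 29.1, 27.6 and 26.3 CPM in controls (log2 fold change −1.98 ± 0.47 SE, edgeR adjusted p = 0.0391). The TWEAK receptor Tnfrsf12a (−1.33), the interleukin-17 receptor subunit Il17ra (−0.81) and the lymphotoxin beta receptor Ltbr (−0.73) also fell. The receptors that rose sense microbial lipopeptides (Tlr1, 1.99) and double-stranded RNA (Tlr3, 1.01). Tlr1 is also expressed by leukocytes, whose part in its level was not tested.

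Adaptors and kinases were near the centre of all genes. Of 34 listed 33 were tested, and 4 fell and 1 rose (median −0.07), where 6.18% of all genes tested fell and 5.37% rose. Those that fell were the Toll-like receptor adaptor Ticam1 (−1.06), the CARD adaptor Bcl10 (−0.97), the kinase Irak2 (−0.67) and the TAK1 partner Tab3 (−0.66). Birc2, which encodes cIAP1, a ubiquitin ligase that keeps NIK levels low, rose to 89.1, 69.0, 62.8 and 87.1 CPM in mutants, against 27.4, 33.5 and 27.9 CPM in controls (log2 fold change 1.38 ± 0.20 SE, edgeR adjusted p = 0.0106). The IKK genes, named for their role after their values were seen, had log2 fold changes of 0.04 (Chuk), 0.01 (Ikbkb) and 0.44 (Ikbkg), none of which passed (edgeR adjusted p = 0.891, 0.972 and 0.343). Map3k14, the NIK gene, was also named after its values were seen. It had a log2 fold change of 1.08 and did not pass (edgeR adjusted p = 0.0858).

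Of 22 other inhibitor genes all were tested, and 3 fell and none rose in edgeR (median −0.60). Over all genes tested, 6.18% fell and 5.37% rose. None rose with DESeq2 or limma-voom either. Over all genes, 1664 of 18651 were higher with DESeq2, and 16.8% were with limma-voom. Nfkbib, which encodes IkB beta, stood at 48.5, 50.2, 44.5 and 53.7 CPM in mutants, against 102, 101 and 114 CPM in controls (log2 fold change −1.10 ± 0.15 SE, edgeR adjusted p = 0.00924). The A20-binding protein gene Tnip1 (−1.22) and the deubiquitinase gene Cyld (−0.93) fell with it. Of these 22 genes, 12 had mutant ranges wholly below the controls, as did 16.1% of all genes.

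Of 31 target genes 29 were tested, and 8 fell and 1 rose, where 6.18% of all genes tested fell and 5.37% rose (median −0.78). The chemokine gene Ccl20 and the cytokine gene Csf2 were low in every library, at 0 to 0.840 CPM in mutants against 2.74 to 8.91 CPM in controls for Ccl20, and 0.0700 to 2.26 CPM in mutants against 7.19 to 16.0 CPM in controls for Csf2 (log2 fold changes −3.68 and −3.47, edgeR adjusted p = 0.0422 and 0.0411). The chemokine gene Cxcl2 stood at 30.3, 158, 145 and 134 CPM in mutants, against 679, 553 and 612 CPM in controls, and the urokinase gene Plau had a log2 fold change of −2.95. Cd83, a surface protein of activated antigen-presenting cells, rose to 63.4, 44.3, 40.9 and 31.5 CPM in mutants, against 19.1, 20.8 and 15.5 CPM in controls (log2 fold change 1.29, edgeR adjusted p = 0.0287). Without any 1 of the 3 controls, no gene of the 4 lists passed. Without mutant replicate 1, where 29.5% of all genes passed, the numbers were 6 lower and 4 higher for ligands and receptors, 7 and 5 for adaptors and kinases, 7 and 0 for other inhibitors, and 13 and 2 for targets.

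**Figure D4:**
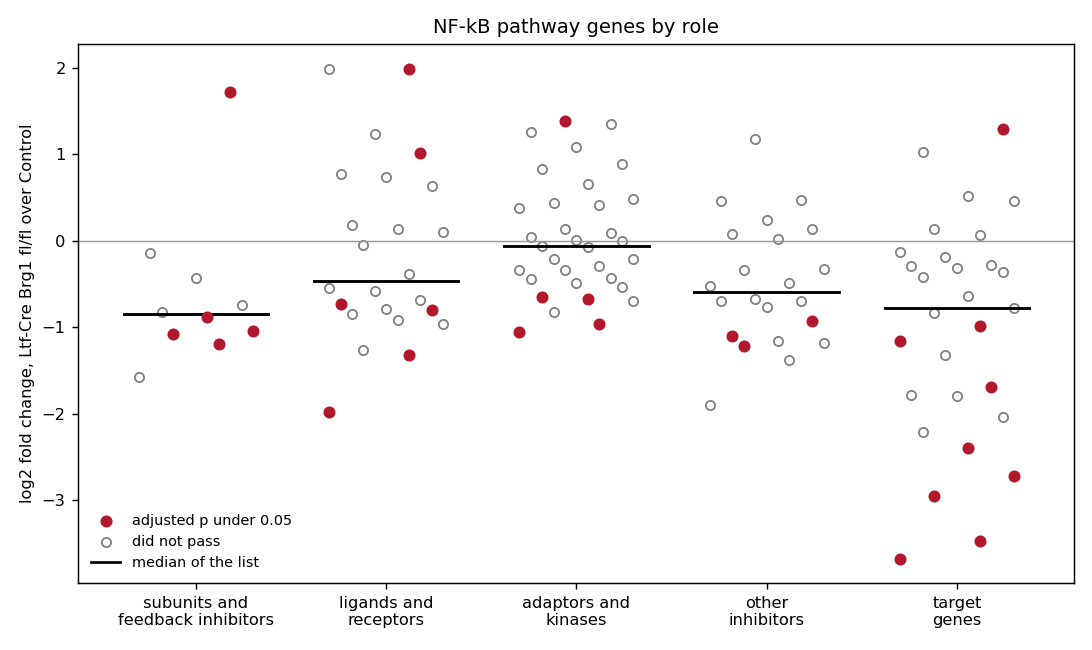
Log2 fold change, mutant over control (vertical axis), of the 10 genes and of the tested genes of each pathway list, with the list median as a line. Filled points passed the adjusted p threshold. The medians are −0.85, −0.47, −0.07, −0.60 and −0.78 from left to right, and the target genes reach lowest, to −3.68.

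Tissue handling can move immediate early genes, and their summed level (7 genes) spanned 4719 to 8244 CPM among mutants, against 5140 to 5553 CPM among controls. Of these 7 genes, Junb fell and Fosb rose, where 6.18% of all genes tested fell and 5.37% rose. The log2 fold changes of the 7 ran from −1.02 to 1.19. Fosb, the most abundant of them, stood at 1468, 3329, 2551 and 2088 CPM in mutants, against 1034, 1127 and 945 CPM in controls, without overlap. Mutant replicate 2, the highest mutant for Rel, Nfkbia, Nfkbie, Nfkbiz and Tnfaip3, also had the highest immediate early sum at 8244 CPM. The part of handling in these results was not tested.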

How the data were processed

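Cells were sorted with an EpCAM antibody and the mRNA libraries keep strand (KAPA), per the labels' protocols. Per the submitters' processing notes, the tools were STAR, DESeq2, FastQC, cutadapt and Trim Galore, and the build was mm10; no versions were stated. The authors deposited raw counts of reads per gene for each library, unnormalized, and 1 table of their own log2 fold changes with p-values. The mean signal and Wald score in that table, also deposited by the authors, were not used.

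Counts of the reverse strand entered the tests; this strand held 94.8% to 95.6% of both stranded columns. Entries that name no gene were left out throughout: 3.90% to 6.70% of reads did not map, 8.45% to 11.2% mapped to several places, 10.5% to 14.7% fell outside genes and 0.827% to 1.29% were ambiguous. Symbols, coordinates and exon lengths come from GENCODE M21 (GRCm38), which 53274 of 53379 gene IDs matched. Among the 10 genes, Nfkb1 overlaps another annotated gene on its strand, and reads in both are not counted. At most 0.650% of the 50-base words of any of the 10 are shared with other genes. At the depths reached, 3 reads correspond to 0.224 to 0.241 unscaled CPM for mutants, and 0.116 to 0.140 for controls.

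The quasi-likelihood test of edgeR 4.0.16 (R 4.3.3) was run on genes kept by filterByExpr, with TMM scaling, genotype as the only term and Benjamini-Hochberg adjustment. Each mutant library is 1 mouse and each control library a pool, and p-values reflect how these vary. No 2 libraries of a group agreed within sampling noise. The fit was tested on simulated data with known changes. A gene that did not pass can still differ. Ratios were tested by exact permutation in scipy 1.17.1, after 0.5 was added to each count. Alternatives used DESeq2 1.42.0, limma 3.58.1, other scalings, no filter, unstranded counts, a replicate term and each library left out.

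The 10 genes, the lists and the tests were chosen with earlier results of these data known. Named from each pathway list are up to 4 genes per direction that passed the test, ranked by size of change, if they averaged 1 CPM or more. The 6 marker lists are given as summed CPM. Promoters come from RefSeq (GRCm38.p6).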

Additional observations from a re-analysis of the deposited data

Results flagged for a closer look

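Among the 4 mutants, a library stood apart from the others in 3 of 51 values tested by Dixon's criterion at the 95% level, which chance alone exceeds in about 1 in 20. None concerns the 10 genes themselves. The lymphotoxin beta receptor gene Ltbr stood at 76.1 CPM in mutant replicate 4, against 60.9 to 62.3 CPM in the other mutants. The summed fibroblast markers stood at 474.8 CPM in mutant replicate 3, against 165 to 194 CPM in the other mutants. The summed immediate early genes stood at 8244 CPM in mutant replicate 2, against 4719 to 5255 CPM in the other mutants. Their part in the results was not tested.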

How the results depend on the processing

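With 4 mutants and 3 controls from different library sets, thresholds rest on few libraries, and leaving out mutant replicate 3 or any 1 control ended all 5 calls among the 10 genes. The number of genes changed was 1687, and was 3293 with DESeq2, 5219 with limma-voom and sample weights, 2734 with total count scaling and 1057 without the filter. The share of all genes lower and higher was 6.18% and 5.37% in the main fit. It was 18.9% and 16.8% with limma-voom and 4.82% and 8.06% with upper-quartile scaling. Total count scaling gave 3.64% and 15.1%, unstranded counts 5.89% and 5.12%, and no filter 2.42% and 1.22%. With DESeq2, 1629 of 18651 genes were lower and 1664 higher. Of the 10 genes, 4 were lower, and 2 were with upper-quartile scaling, unstranded counts or no filter, 0 with total count scaling, and 6 with limma-voom, where Nfkb2 (adjusted p = 0.0386) and Tnfaip3 (0.0412) passed too. Ligands and receptors (4 lower, 2 higher) had 4 higher with DESeq2, 9 lower and 4 higher with limma-voom, 2 lower with upper-quartile scaling, 0 lower and 4 higher with total count scaling, and 2 lower and 1 higher without the filter. Adaptors and kinases (4 lower, 1 higher) had 3 higher with DESeq2, 8 lower and 4 higher with limma-voom, 2 lower with upper-quartile scaling or without the filter, and 1 lower and 4 higher with total count scaling. Other inhibitors (3 lower) had 5 lower with DESeq2 and 10 with limma-voom, and target genes (8 lower) had 13 lower with limma-voom. The cause of these shifts was not tested.

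The replicate numbers do not pair the samples, which are separate mice and pools: deviations of same-numbered samples correlated at −0.02, −0.36 and 0.16, and not every sample correlated best with its own number. With a replicate block 2 genes changed, and 0 of the 10 genes and 0 of each of the 4 lists passed in either direction. Mutant replicate 4 has no partner and adds nothing to that fit.

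Leaving out each library in turn gave 133 to 4403 genes changed, 0 to 4 of the 10 genes lower and 0 to 1 higher. The ranges were 0 to 6 lower and 0 to 4 higher for ligands and receptors, 0 to 7 and 0 to 5 for adaptors and kinases, 0 to 7 and 0 to 0 for other inhibitors, and 0 to 13 and 0 to 2 for target genes. The log2 ratio differences ranged from 0.25 to 0.36 (Nfkb2 to Nfkb1), −0.64 to −0.13 (Nfkbia to Rela) and −0.27 to −0.09 (Relb to Rela). Of 450 values for 30 named genes over 15 alternatives, 275 kept direction and side of the threshold, 170 lost the threshold, 2 gained it and 3 changed sign, all of them of Rel, which had 0.21 with total count scaling and −0.352 to 0.0888 when a library was left out.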

Other observations

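The mutant libraries ranked the 10 genes along a divide. Mutant replicate 2 was the highest mutant for 5 genes (Rel, Nfkbia, Nfkbie, Nfkbiz and Tnfaip3) and mutant replicate 4 for the other 5 (Rela, Relb, Nfkb1, Nfkb2 and Bcl3), while mutant replicate 1 was the lowest for 9, all but Rela. In the controls, replicate 2 was the lowest for all 10 genes and replicate 3 the highest for 9, all but Rel. These ranks were noticed after the values were seen and were not tested.

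Among mutants, Nfkbie was higher where Nfkbia was higher although their scaled levels differed from controls in opposite directions. Rel, Nfkbiz and Tnfaip3 had the same order of mutant libraries, with replicate 2 highest, then 3, 4 and 1. The spread between mutants was widest for Tnfaip3 (coefficient of variation 86.0%) and Nfkbiz (63.5%) and narrowest for Relb (21.9%) and Nfkb1 (23.6%), against 26.5%, 20.3%, 12.3% and 14.5% in controls. The control values are spreads between pools and the mutant values spreads between single mice, so a difference between them cannot be assigned to genotype. The summed level of the listed target genes ran from 1503 CPM in mutant replicate 1 to 15392 CPM in mutant replicate 2, against 9194 to 12665 CPM in controls. In mutant replicate 2 the antimicrobial protein gene Lcn2 alone made up 10256 CPM of it.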
